A study of Mus musculus with 20 samples.

Results

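The core circadian clock loop was described here by 10 genes of the 48440 listed in the liver count table. They are Arntl, Clock, Npas2, Per1, Per2, Per3, Cry1, Cry2, Nr1d1 and Nr1d2. Members were chosen by gene name, and the loop itself was selected from earlier results of these same counts, in which its genes differed between the groups. The levels and fold changes below are therefore a description and are not independent support for a difference. All 10 were among the 16071 genes that passed the filter on low counts.

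Livers came from female wild-type C57BL/6 mice (C57BL/6J in the study's methods), 8 weeks old when the experiment began, that received corticosterone (CORT, the main glucocorticoid of rodents) at 100 µg per ml, or its vehicle, with the drinking water over 5 weeks, after which the livers were taken. Every mouse was also injected 2 times per week with 5 mg/kg of either a monoclonal antibody against acyl coenzyme A binding protein (αACBP) or an isotype IgG2a. The 4 groups of 5 livers were thus Isotype + Vehicle and αACBP + Vehicle without the steroid, and Isotype + CORT and αACBP + CORT with it. The controls therefore carried an injected antibody too. Mice were kept in a 12 h light–dark cycle, and the clock time at which each liver was taken is not given in the sources used here. Collection time and treatment group cannot be told apart in these data.

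The clock is a feedback loop of transcription. BMAL1, the product of Arntl, pairs with CLOCK or with its relative NPAS2 and binds E-boxes to switch on the Per, Cry and Nr1d genes. The PER and CRY proteins then inhibit this pair, and the REV-ERB receptors encoded by Nr1d1 and Nr1d2 repress Arntl, Npas2, Clock and Cry1. In mouse liver Arntl and Npas2 are known to peak at the opposite time of day from Nr1d1 and the output gene Dbp, and glucocorticoids are known to act on Per1 and on the timing of the liver clock.

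Upstream sequence is shown for 4 of the genes that BMAL1 switches on, because their mean levels were highest in the group in which Arntl was lowest. They are the members for which at least 150 of the 250 bases before the RefSeq start site (GRCm38.p6 table, of which 9 members had an entry) lay outside annotated exons of the gene itself. Each stretch matched GRCm39 at 1 place. Per3 is given at chr4:151129141-151129372, Cry2 at chr2:92264475-92264664 and Nr1d1 at chr11:98666204-98666453, all on the minus strand, and Nr1d2 at chr14:4230340-4230544 on the plus strand. Sequences run 5′ to 3′, and capitals mark a D-box (TTATGTAA or TTACGTAA) or an E′-box (CACGTT, read AACGTG on the other strand).
Per3: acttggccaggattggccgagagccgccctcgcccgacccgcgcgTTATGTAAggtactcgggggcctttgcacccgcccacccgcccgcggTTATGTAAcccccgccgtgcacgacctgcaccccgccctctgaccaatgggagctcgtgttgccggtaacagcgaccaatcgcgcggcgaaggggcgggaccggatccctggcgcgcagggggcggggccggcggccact
Cry2: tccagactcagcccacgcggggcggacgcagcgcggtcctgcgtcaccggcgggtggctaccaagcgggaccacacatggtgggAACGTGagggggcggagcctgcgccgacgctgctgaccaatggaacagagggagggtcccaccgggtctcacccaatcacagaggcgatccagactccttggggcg
Nr1d1: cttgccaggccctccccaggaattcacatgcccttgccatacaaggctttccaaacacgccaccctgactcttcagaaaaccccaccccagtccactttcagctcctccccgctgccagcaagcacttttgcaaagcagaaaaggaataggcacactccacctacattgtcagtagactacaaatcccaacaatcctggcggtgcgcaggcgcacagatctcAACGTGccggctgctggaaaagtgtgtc
Nr1d2: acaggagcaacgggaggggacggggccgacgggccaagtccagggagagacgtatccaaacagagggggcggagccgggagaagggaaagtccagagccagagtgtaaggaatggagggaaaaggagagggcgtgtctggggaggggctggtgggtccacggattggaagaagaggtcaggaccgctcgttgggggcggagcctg
Per3 held 2 D-boxes, which begin 205 and 158 bases before the start site. A D-box was found in 0.931% of 32851 mouse promoters of the same length. The E′-box began 166 bases before the start in Cry2 and 28 bases before it in Nr1d1, and this word was found in 3.85% of promoters. The canonical E-box CACGTG, in 6.02% of promoters, was found in Per1 at 166 bases and in Cry1 at 60 bases before the start. Cry1 also held an E′-box at 79 bases. All 250 bases of the Per1 and Cry1 windows lay in annotated exons of the gene itself. Neither the response element of the ROR and REV-ERB receptors (TAGGTCA or TGGGTCA, 5.38% of promoters), nor the cyclic AMP element TGACGTCA (1.55%), nor the palindromic glucocorticoid element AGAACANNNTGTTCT (0.00913%) was found in the 9 windows. Both strands were read and near matches were not counted, so a word missing from these windows says nothing of the factor that binds it.

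Depth was similar across the 20 libraries, with 14934926 to 20299999 counts on genes. The hepatocyte markers were abundant in every liver, with summed levels of 36769.7 to 135328 counts per 1000000 (CPM). Some libraries stood apart from their groups. αACBP + Vehicle replicate 5 had the fewest genes with a count (14613), the largest scaling factor (1.29) and the lowest median correlation with its own group (0.916), and 183 genes were at 0 in it while having at least 10 counts in every other liver. Isotype + CORT replicates 1 and 2 held 74 and 88 such genes. The share of counts on mitochondrial genes was 9.03% in αACBP + CORT replicate 5, against 4.11 to 4.85% in the rest of its group, and its median correlation with that group was 0.953 against 0.961 to 0.968. Isotype + Vehicle replicate 4 likewise had 8.96% against 4.53 to 5.65%, and 0.942 against 0.967 to 0.970. In αACBP + Vehicle the mitochondrial share was 8.25% in replicate 2 and 7.94% in replicate 4, against 3.94 to 6.19% in the rest. The summed level of 4 Kupffer cell markers was lower in Isotype + CORT (88.4 to 273 CPM) than in Isotype + Vehicle (245 to 406 CPM). That of 4 other leukocyte markers was 4.40 to 11.6 CPM against 19.9 to 34.5 CPM. In αACBP + Vehicle against Isotype + Vehicle, the median sum was 81460 against 105747 CPM for hepatocyte markers and 137 against 196 CPM for 4 stellate cell markers. For the Kupffer markers it was higher, at 434 against 383 CPM, and each pair of ranges overlapped. In whole liver, fewer cells of a type and less RNA per cell cannot be told apart.

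Arntl encodes BMAL1, the obligate activator of the loop (ENSMUSG00000055116.8; Bmal1 in GENCODE, chr7:112806152-112914735 of GRCm39, plus strand). Its level was 35.3, 31.5, 31.1, 40.6 and 28.2 CPM in the 5 Isotype + Vehicle livers. With the antibody and no CORT it was 1.90, 6.91, 4.47, 12.0 and 13.2 CPM. No αACBP + Vehicle liver reached the lowest Isotype + Vehicle liver. The group means were 33.3 ± 4.80 and 7.69 ± 4.83 CPM (SD, n = 5 each), and the fitted log2 fold change was -2.11 (standard error 0.43). Without αACBP + Vehicle replicate 5 it was -2.40.

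CORT-treated mice were less uniform. Arntl stood at 21.6, 17.7, 11.4, 25.2 and 5.80 CPM in Isotype + CORT, again below every Isotype + Vehicle liver. In αACBP + CORT it was 20.3, 27.2, 35.5, 27.8 and 10.6 CPM. Replicate 5 of that group was the low liver, and the other 4 overlapped both isotype groups. In order of group means, Isotype + Vehicle was followed by αACBP + CORT (24.3 ± 9.35 CPM), Isotype + CORT (16.3 ± 7.80 CPM) and αACBP + Vehicle. Neighbours in this order overlapped from liver to liver.

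Npas2 encodes the partner that can stand in for CLOCK, and it lies at chr1:39232705-39402323 on the plus strand. It had 17.4, 12.5, 12.0, 19.9 and 7.91 CPM in Isotype + Vehicle and 1.01, 5.41, 1.15, 4.90 and 3.38 CPM in αACBP + Vehicle, with no overlap. Its Isotype + CORT levels were 8.82, 4.60, 3.15, 8.08 and 0.193 CPM, where the last liver rests on 3 counts. In αACBP + CORT it was again high in 4 livers, at 14.2, 17.3, 14.6 and 19.5 CPM, and low in replicate 5, at 3.57 CPM. Replicate 5 was the lowest liver of both CORT groups in Npas2 and in Arntl. Clock, the usual partner of BMAL1 (chr5:76342860-76452846, minus strand), varied less. Its means ran from 17.6 ± 5.32 CPM in αACBP + Vehicle to 33.9 ± 8.30 CPM in Isotype + CORT, and αACBP + Vehicle overlapped each other group.

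**Figure D1:**
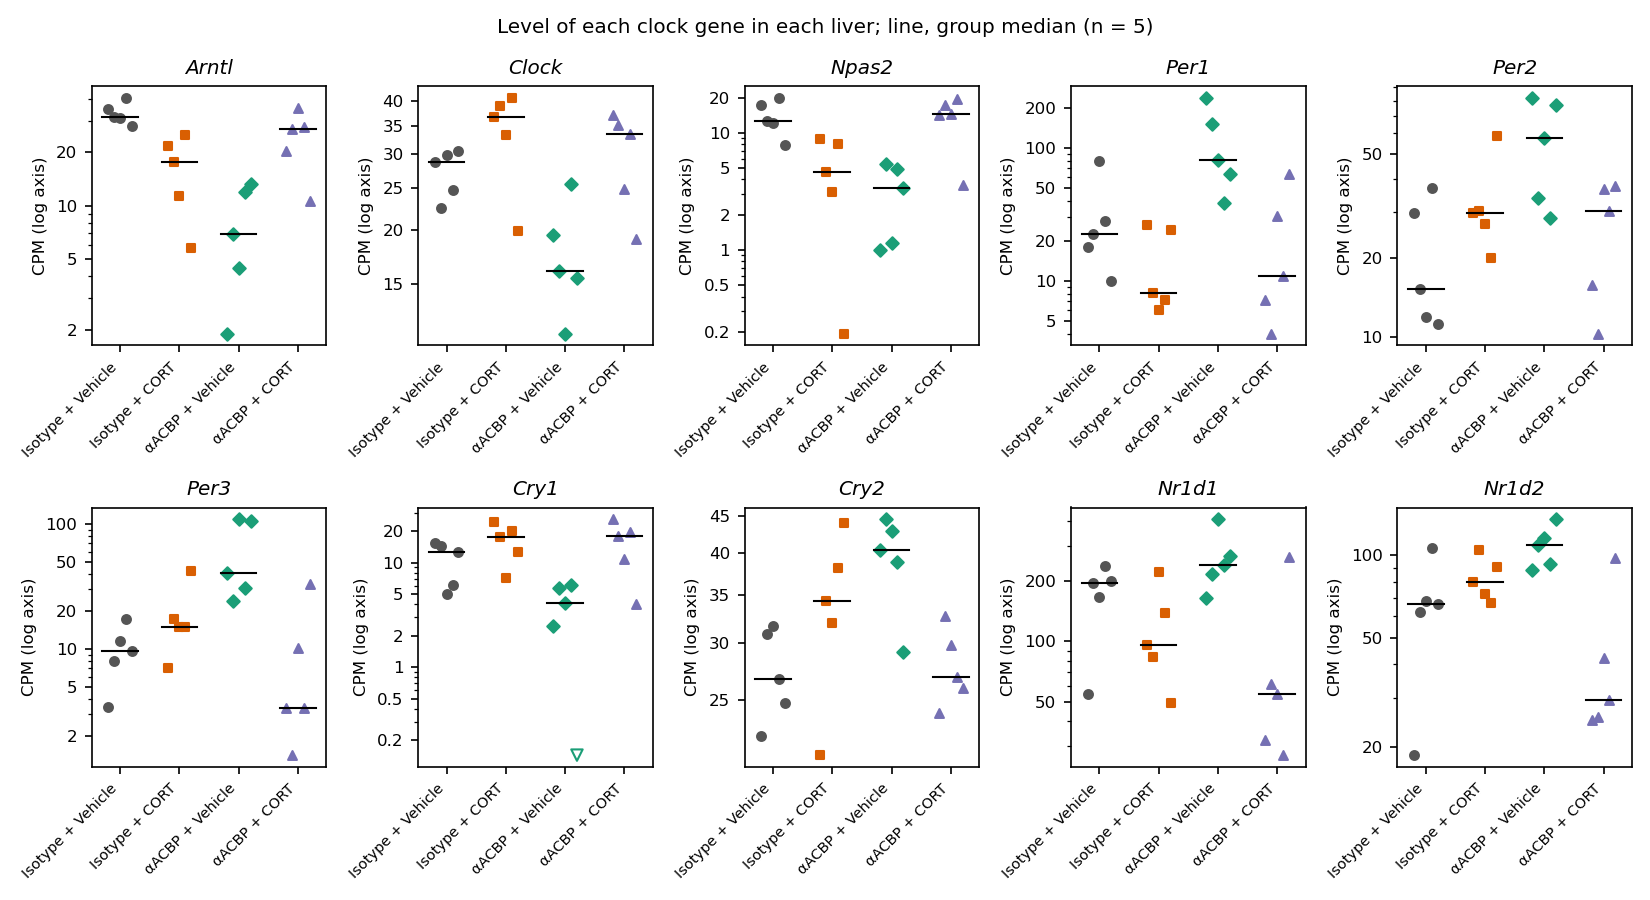
Level of each clock gene in CPM (log axis) in every liver of the 4 groups; points are livers, the line is the group median (n = 5), and the open triangle is a count of 0 drawn at the limit of 3 counts. The medians of Arntl and Npas2 were lowest in αACBP + Vehicle, where those of Per3 and Nr1d2 were highest, and αACBP + CORT replicate 5 lay at either end of its group in 9 of the 10 panels.

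The Period genes encode repressors that accumulate as the loop closes. Per3 (chr4:151081373-151129140, minus strand) was at 3.43, 7.95, 11.6, 17.3 and 9.71 CPM in Isotype + Vehicle. In αACBP + Vehicle it was at 40.9, 24.3, 109, 30.6 and 107 CPM, all above the isotype livers. The fitted log2 fold change was 2.64 (standard error 0.77), and 2.35 without replicate 5. In αACBP + CORT, Per3 was at 3.36, 1.42, 10.2 and 3.37 CPM in the first 4 livers but at 33.2 CPM in replicate 5. Isotype + CORT held 7.11 to 17.5 CPM in 4 livers and 42.3 CPM in replicate 5, the liver with the lowest Arntl of that group.

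Per1, a known direct glucocorticoid target (chr11:68986035-69002300, plus strand), was the most variable member within groups. It spanned 9.95 to 80.2 CPM in Isotype + Vehicle and 38.4 to 238 CPM in αACBP + Vehicle. Its levels in the CORT groups were 5.98 to 26.1 CPM under isotype and 3.99 to 63.1 CPM under αACBP, with medians (8.11 and 10.8 CPM) below those of the vehicle groups (22.6 and 81.0 CPM). Per2 (chr1:91343700-91387069, minus strand) had 11.2 to 37.1 CPM in Isotype + Vehicle, 20.01 to 58.5 CPM in Isotype + CORT, 28.5 to 82.1 CPM in αACBP + Vehicle and 10.3 to 37.7 CPM in αACBP + CORT. The ranges of both genes overlapped between αACBP + Vehicle and Isotype + Vehicle.

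The cryptochromes are the partners of PER in repression, and the pair did not move alike. Cry1 (chr10:84967560-85021252, minus strand) was at 15.2, 14.3, 5.02, 6.07 and 12.5 CPM in Isotype + Vehicle and at 2.46, 5.73, 4.10 and 6.11 CPM in 4 αACBP + Vehicle livers. The fifth, replicate 5, had a count of 0, which allows up to 0.145 CPM (3 counts on the scaled total, counting error only). Every other liver had at least 44 counts of Cry1, so it was among the 183 genes at 0 in that library alone. The limit does not cover what sets that library apart. Cry1 was 7.10 to 24.3 CPM in Isotype + CORT and 4.00 to 25.9 CPM in αACBP + CORT, its lowest liver there being replicate 5 once more. Cry2 (chr2:92233894-92264474, minus strand) changed little in size, from a mean of 27.2 ± 3.99 CPM in Isotype + Vehicle to 39.2 ± 6.02 CPM in αACBP + Vehicle, and the groups overlapped.

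Nr1d1 encodes REV-ERBα (chr11:98658752-98666188, minus strand). It was at 164, 217, 406, 239.6 and 265 CPM in αACBP + Vehicle. In Isotype + Vehicle 4 livers held 166 to 236 CPM and replicate 1 held 54.7 CPM. αACBP + CORT had the lowest levels, 32.0, 61.5, 54.8 and 27.1 CPM, with replicate 5 at 264 CPM. Isotype + CORT spread between these, from 49.3 to 222 CPM. Of its exon bases 52.3% (1694 bases) also lie in exons of Thra, the thyroid hormone receptor alpha gene on the other strand, and the strand setting of the counting is not given in the sources used here. The Thra values followed, with 33.99 to 52.7 CPM in 4 αACBP + CORT livers and 199.9 CPM in replicate 5, so reads of the 2 genes may be shared. The other members shared at most 12.7% of their exon bases with any single other gene.

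Nr1d2, which encodes REV-ERBβ (chr14:4230545-4266624, plus strand), does not overlap Thra. It was at 88.4 to 135 CPM in αACBP + Vehicle, at 66.9 to 104 CPM in Isotype + CORT and at 18.6 to 106 CPM in Isotype + Vehicle. In αACBP + CORT 4 livers held 24.9, 25.6, 42.0 and 29.6 CPM and replicate 5 held 97.5 CPM. Both receptors were thus low in the same 4 livers in which Arntl and Npas2 were high. Per kilobase of exon, Nr1d1, whose reads may be shared with Thra, was the most abundant member in every group. It ran from 27.1 ± 30.7 CPM per kb in αACBP + CORT to 79.7 ± 27.9 in αACBP + Vehicle. In αACBP + Vehicle it was followed by Per1 (14.9 ± 10.6 CPM per kb) and Nr1d2 (11.9 ± 2.07), while Npas2 was the least abundant (0.578 ± 0.374), next to Arntl (0.664 ± 0.417) and Cry1 (0.739 ± 0.505), whose spreads overlapped.

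**Figure D2:**
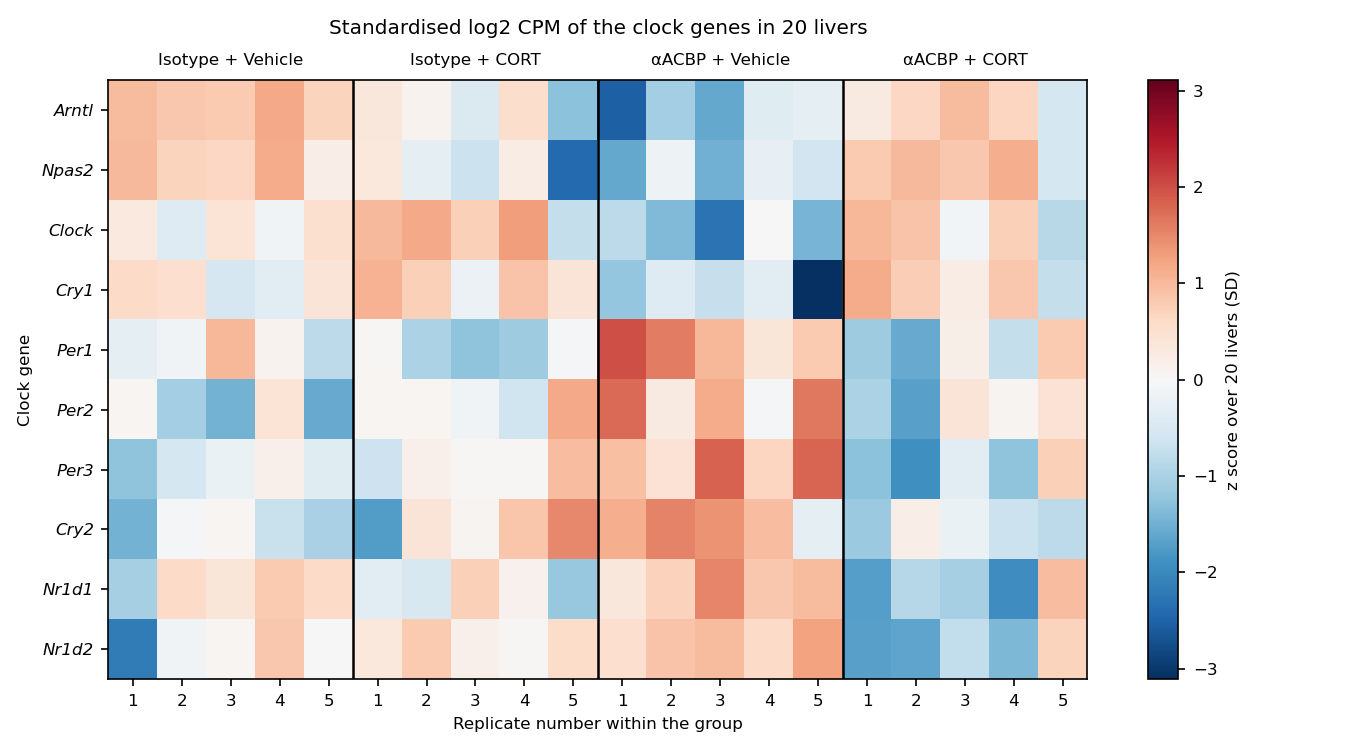
Standardised log2 CPM (z score over the 20 livers, in SD) of the 10 clock genes (vertical) in each liver (horizontal, by group and replicate). In αACBP + Vehicle the upper 4 genes were mostly low and the lower 6 mostly high, αACBP + CORT replicates 1 to 4 showed the opposite, and replicate 5 of that group resembled αACBP + Vehicle.

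The position of single livers was then described by combinations of these genes. The first principal component of the 10 standardised genes held 62.2% of their variance, with Arntl, Clock, Npas2 and Cry1 on one side and the Period genes, Cry2, Nr1d1 and Nr1d2 on the other. The second held 12.7%. All 5 αACBP + Vehicle livers had negative first-component values, from -4.46 to -1.34. αACBP + CORT replicates 1 to 4 ranged from 1.17 to 3.54, and replicate 5 was at -1.83. Isotype + Vehicle was at 0.073 to 2.86. Isotype + CORT was at -0.039 to 1.53 in 4 livers and at -2.28 in replicate 5.

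A second measure, log2 CPM of Arntl minus that of Nr1d1, was compared only between livers. Its medians were -2.53 in Isotype + Vehicle, -2.43 in Isotype + CORT, -4.87 in αACBP + Vehicle and -0.65 in αACBP + CORT. αACBP + Vehicle lay between -6.36 and -4.26, with only αACBP + CORT replicate 5 (-4.57) of the other 15 livers inside this range. Isotype + CORT ran from -4.23 to -2.12, so that its replicate 3, at -4.23, lay just outside. Isotype + Vehicle replicate 1, at -0.62, lay with the 4 αACBP + CORT livers, which ranged from -1.16 to 0.037. That liver also had the lowest Nr1d1, Nr1d2 and Per3 of its group.

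**Figure D3:**
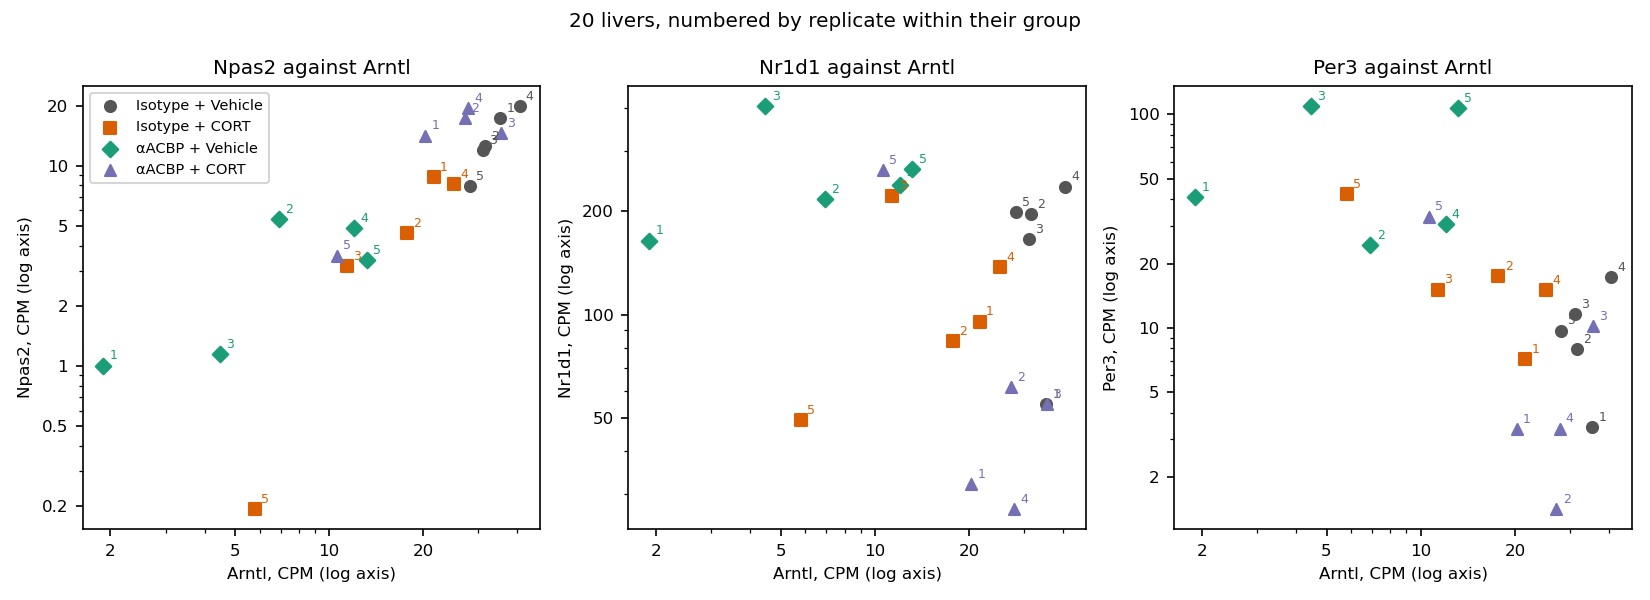
Level of Npas2, Nr1d1 and Per3 (vertical, CPM, log axis) against Arntl (horizontal, CPM, log axis) in the 20 livers, coloured by group and numbered by replicate. Npas2 was high where Arntl was high, Per3 tended to be low there, and Isotype + CORT replicate 5 was low in Arntl, Npas2 and Nr1d1 together.

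Isotype + CORT replicate 5, at -2.28 on the first component, lay inside the range of αACBP + Vehicle there. Its Npas2, Per1 and Nr1d1 were nevertheless below every αACBP + Vehicle liver, and its Cry1 was above each of them. Arntl (5.80 CPM), Npas2 (0.193 CPM), Clock (19.9 CPM) and Nr1d1 (49.3 CPM) were each the lowest of its own group, whereas Per2 (58.5 CPM), Per3 (42.3 CPM) and Cry2 (44.0 CPM) were the highest. Its second-component value, -2.84, was the lowest of the 20 livers.

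Spread within groups was large for several members. The pooled within-group SD of log2 CPM was 1.18 for Per1, 1.12 for Per3 and 1.04 for both Cry1 and Npas2, against a median of 0.46 over all genes tested. These 4 lay at or above the 97.9 percentile of all genes. The Cry1 value includes the count of 0 in αACBP + Vehicle replicate 5, and that of Npas2 the 3 counts in Isotype + CORT replicate 5. Their spread without these livers was not computed. Nr1d1 (0.90) and Arntl (0.74) were lower, and Clock (0.37) and Cry2 (0.27) were below the median gene. With the group means removed, Npas2 went with Arntl across the 20 livers (Spearman's rho 0.82). The 2 genes lay on the same side of their group medians in 14 livers and on opposite sides in 0. A liver at the median of either gene was counted on neither side. The other members had rho between -0.30 and 0.35 with Arntl. These values share libraries and scaling and are given without a test.

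Genes whose levels were most like those of Arntl were sought in the same way among 9671 genes outside the loop with a mean of at least 5 CPM, so that Npas2 and the other members were left out of the search, as were predicted genes. They were Stat5b (rho 0.87), Stard13 (0.85), Mbnl1 (0.85), Pcyox1l (0.82) and Plxna2 (0.80), over 20 livers. For Nr1d1 they were Thra (0.92), with which it shares exon bases, Luc7l (0.82), Gnat1 (0.80), Lacc1 (0.79) and Trib3 (0.79).

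Differences between groups were taken from edgeR's quasi-likelihood test fitted to all genes, in which a gene counts as called when its p, adjusted over all genes by the Benjamini–Hochberg method, is at most 0.05 and its level differs by 1 or more on the log2 scale in either direction. Since the loop was picked with these contrasts known, the members' counts are set beside the share of all genes and nothing is read from them. With the antibody and no CORT, of the 10 members 1 was called, Arntl downwards, where 1.30% of all genes were called. Arntl, Npas2 and Per3 (3 members) did not overlap between the groups, a property shared by 7.13% of genes. At an unadjusted p of 0.05 or less stood 8 members and 20.6% of genes. DESeq2 called 4 members where it called 1.77% of genes, and limma voom 3 where it called 1.93%. The fitted log2 fold changes of the others were -2.13 (standard error 0.63) for Npas2, 1.85 (0.77) for Per1, 1.41 (0.43) for Per2, -1.53 (0.67) for Cry1, -0.63 (0.22) for Clock, 0.52 (0.18) for Cry2, 0.75 (0.37) for Nr1d2 and 0.60 (0.58) for Nr1d1. Without αACBP + Vehicle replicate 5, Arntl alone was again called (0.686% of genes), and the values were -2.16 for Npas2, 2.00 for Per1, 1.26 for Per2 and -1.21 for Cry1. No member changed sign. Without Isotype + Vehicle replicate 4, the liver with 8.96% of its counts on mitochondrial genes, 3 members were called (Arntl, Per2 and Per3; 2.08% of genes), and the part of that difference was not tested. The median absolute log2 fold change with all livers was 1.47 over the members and 0.37 over all genes. The hepatocyte, stellate and Kupffer marker medians given above also differed between these groups, and their part in the result was not tested.

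CORT under αACBP was compared with vehicle under αACBP, and this contrast shares the αACBP + Vehicle livers with the preceding one. No member was called (0 of 10; 0.212% of all genes), while all 10 had an unadjusted p of 0.05 or less, as 12.7% of genes did, and DESeq2 and limma voom each called 5 (0.697% and 0.964% of genes). No member separated these groups fully (0 of 10; 2.74% of genes). Arntl, Npas2, Cry1 and Clock had log2 fold changes of 1.65 (standard error 0.43), 2.12 (0.63), 2.09 (0.68) and 0.76 (0.22). Those of Per3, Per1, Nr1d1, Nr1d2, Per2 and Cry2 were -2.59 (0.77), -2.30 (0.79), -1.56 (0.59), -1.30 (0.38), -1.09 (0.43) and -0.49 (0.18). The calls changed when 1 liver was left out. Without αACBP + CORT replicate 5, 4 members were called (0.930% of genes), namely Arntl (1.85) upwards and Per3 (-3.76), Nr1d1 (-2.56) and Nr1d2 (-1.82) downwards. This was the liver with 9.03% of its counts on mitochondrial genes, and the part of that difference in the result was not tested.

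CORT under isotype, the contrast of the steroid alone, gave 0 called members of 10 (1.94% of genes), 2 members at an unadjusted p of 0.05 or less (15.6% of genes) and 0 by DESeq2 (3.28% of genes) or limma voom (1.51%). Arntl alone did not overlap between these groups (5.04% of genes), with a log2 fold change of -1.03 (standard error 0.42), and Npas2 followed at -1.49 (0.61). The Kupffer and leukocyte markers given above were also lower in this group, and their part in the result was not tested. The other members had log2 fold changes from -1.16 (Per1, standard error 0.77) to 0.96 (Per3, 0.74), each less than 2 standard errors from 0.

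The antibody under CORT, the contrast that asks whether neutralization changes the livers of CORT-treated mice, likewise gave 0 called members of 10 (0.597% of genes), by DESeq2 (1.31% of genes) and limma voom (0.355%) too, and 2 members at an unadjusted p of 0.05 or less (12.5% of genes). None separated the groups (0 of 10; 3.22% of genes). The members at that p were Npas2, with a log2 fold change of 1.48 (standard error 0.61), and Nr1d2, with -0.91 (0.38). Without αACBP + CORT replicate 5, Nr1d2 was called at -1.44 (0.365% of genes were called), Nr1d1 went from -0.42 to -1.42 and Per1 from 0.71 to -0.10. Direction was not stable for Cry1 either (-0.069, standard error 0.64). The summed Kupffer markers were 309 to 460 CPM in αACBP + CORT against 88.4 to 273 CPM in Isotype + CORT, and the other leukocyte markers 13.2 to 23.5 against 4.40 to 11.6 CPM. Neither pair of ranges overlapped, and their part in the result was not tested.

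**Figure D4:**
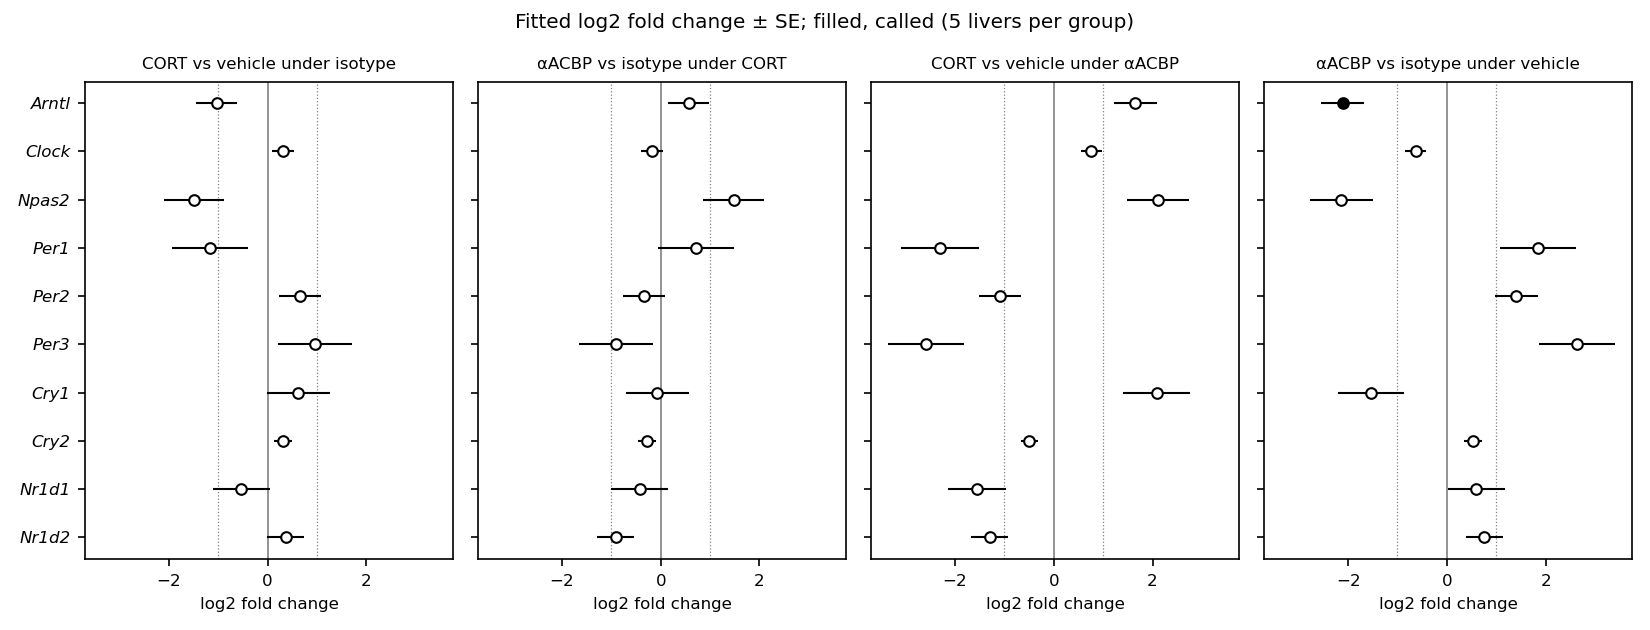
Fitted log2 fold change (horizontal) with its standard error for the 10 clock genes (vertical) in the 4 comparisons of 5 against 5 livers; filled points are called and dotted lines mark the limits of -1 and 1. Only Arntl with the antibody under vehicle was called. The right-hand pair of panels share the αACBP + Vehicle livers.

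The difference between the effects of CORT under αACBP and under isotype was fitted itself, as an interaction. No member was called (0 of 10; 0.143% of genes), 6 had an unadjusted p of 0.05 or less (10.6% of genes), DESeq2 called 4 (1.16% of genes) and limma voom 1 (0.305%). The interaction on the log2 scale was 2.68 (standard error 0.60) for Arntl, 3.61 (0.88) for Npas2 and -3.55 (1.06) for Per3. Nr1d2 (-1.67, 0.53), Per2 (-1.75, 0.60) and Cry2 (-0.81, 0.25) followed. Without αACBP + CORT replicate 5, Arntl (2.88), Npas2 (3.86), Per3 (-4.72) and Nr1d2 (-2.19) were called, beside 0.614% of genes.

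Regulators that touch the loop from outside were taken as a list of 8, of which 7 passed the filter. Rorb was near 0 in every liver. Ciart, a repressor of the CLOCK–BMAL1 pair, had 0.899 to 2.94 CPM in Isotype + Vehicle and 23.3, 23.5, 22.2, 6.72 and 11.5 CPM in αACBP + Vehicle. It rose by 3.24 on the log2 scale (standard error 0.58, edgeR adjusted p = 0.00368), in a comparison where 1.30% of all genes were called. Ciart was the only one of the 7 called in any of the 5 comparisons with all livers kept. Without αACBP + CORT replicate 5 it was also called with CORT under αACBP (-2.60, 0.930% of genes) and in the interaction (-3.57, 0.614% of genes), as was Cipc in the interaction (-1.12). Rora, which encodes a receptor that activates Arntl, was at -0.60 with the antibody under vehicle (standard error 0.19, adjusted p = 0.0570). Cipc, another repressor of CLOCK, was at 0.93 (standard error 0.18, adjusted p = 0.00552). Bhlhe40 (1.04, standard error 0.41), Bhlhe41 (1.83, 1.57) and Timeless (0.27, 0.26) did not pass in this comparison.

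The factors that carry the clock to its output genes were tested next. Dbp, a direct target of BMAL1 and an activator that binds D-boxes, the words marked above in Per3, was at 5.42, 17.3, 21.8, 23.5 and 11.2 CPM in Isotype + Vehicle. In αACBP + Vehicle it was at 215, 236, 611, 151 and 361 CPM (log2 fold change 4.31, standard error 1.06, adjusted p = 0.0287). Without αACBP + Vehicle replicate 5 it was no longer called (4.25, standard error 1.11, adjusted p = 0.0620). Its level lay between 6.44 and 9.61 CPM in 4 αACBP + CORT livers and at 195 CPM in replicate 5. Tef, a relative of Dbp, rose from 48.5 to 132 CPM to 293 to 547 CPM with the antibody under vehicle (2.11, standard error 0.41, adjusted p = 0.00859). Nfil3, which represses at the same sites, fell there by 1.14 on the log2 scale (standard error 0.24, adjusted p = 0.00788) and rose with CORT under αACBP (1.45, standard error 0.24, adjusted p = 0.0101). Hlf was called with CORT under isotype, from 16.4 to 26.4 CPM to 30.9 to 67.2 CPM (1.21, standard error 0.21, adjusted p = 0.000980). Of the 4 genes in this list, 1, 0, 1, 3 and 1 were called in CORT under isotype, αACBP under CORT, CORT under αACBP, αACBP under vehicle and the interaction. The shares of all genes called there were 1.94, 0.597, 0.212, 1.30 and 0.143%. The list was chosen with these results known, so nothing is read from its counts. Without αACBP + CORT replicate 5, Dbp (-5.34) and Tef (-2.36) were called too with CORT under αACBP (0.930% of genes). Both were called in the interaction (-7.44 and -3.29, 0.614% of genes), and Tef with αACBP under CORT (-1.18, 0.365%). The liver left out was the high one in Dbp itself, at 195 CPM, so nothing is read from these calls.

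Other genes tied to the clock moved in part. Of 10 kinases, ligases and proteases acting on PER and CRY, 1 was called, Usp2, a known rhythmic deubiquitinase. It was called with the antibody under vehicle (2.60, standard error 0.62, adjusted p = 0.0242), where 1.30% of all genes were called. Of 10 clock-controlled liver outputs, 3 were called in that comparison. Both lists were chosen with these results known, and nothing is read from the counts. Por, the electron donor of cytochromes P450, and Gys2, the liver glycogen synthase, rose (1.02, standard error 0.26, adjusted p = 0.0264; 1.25, standard error 0.20, adjusted p = 0.00215). Ppard, a fatty acid receptor gene, fell by 1.73 (standard error 0.29, adjusted p = 0.00238). These 4 genes were called there without αACBP + Vehicle replicate 5 as well. Usp2 (-3.99) and Por (-1.66) were called in the interaction once αACBP + CORT replicate 5 was left out, where 0.614% of genes were called.

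Ppard was also the output gene with a called difference in every comparison. It had 24.4 to 73.2 CPM in Isotype + Vehicle, 5.86 to 12.0 CPM in Isotype + CORT, 10.3 to 16.3 CPM in αACBP + Vehicle and 21.1 to 48.3 CPM in αACBP + CORT. With CORT under isotype it was lower, at -2.28 on the log2 scale (standard error 0.30, adjusted p = 0.000231) and was higher with the antibody under CORT by 1.84 (standard error 0.29, adjusted p = 0.00275). The call with CORT under αACBP (1.29, adjusted p = 0.0443) was lost without αACBP + Vehicle replicate 5 (1.38, adjusted p = 0.0945). Gys2 fell by 1.11 with CORT under αACBP (standard error 0.20, adjusted p = 0.0101). None of 9 rhythmic genes that follow body temperature, such as Cirbp and the heat shock genes, was called in any comparison, with list medians of the log2 fold change from -0.64 to 0.57. Of the 9, 7 were positive with CORT under isotype, 1 with αACBP under CORT and 9 with CORT under αACBP. With αACBP under vehicle 2 were positive, and 4 in the interaction. A gene that was not called may still differ. The share of all genes called ran from 0.143 to 1.94%. Of the glucocorticoid receptor and 5 of its targets, Fkbp5 alone was called, upwards with CORT under isotype (1.70, standard error 0.26, adjusted p = 0.000722), where 1.94% of genes were called. Fkbp5 was 26.1 to 51.1 CPM in Isotype + Vehicle and 67.6 to 177 CPM in Isotype + CORT. Of the 6 genes in this list it was the only 1 with a positive log2 fold change there, and the list median was -0.32. The list as a whole was thus not raised with CORT under isotype.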

How the data were processed

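Liver RNA of 20 mice was sequenced by the authors. The deposited table holds raw counts per gene and liver. According to the study's methods, reads were aligned with HISAT2 and counted with HTSeq-count in union mode, non-unique features included. The methods name GRCm39 and the submitters' processing notes name mm10. Annotation release, strand setting and collection time are not given in the sources used here. Lines that name no gene were left out. They listed 42.3 to 45.2% of read pairs per liver as on no feature. Groups came from the labels.

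Counts were analysed with R 4.3.3. Genes were filtered with filterByExpr and scaled by TMM, and a model of the 4 groups was fitted with edgeR 4.0.16 (robust quasi-likelihood test), with p-values adjusted over 16071 genes. The common biological coefficient of variation was 0.481. CPM use TMM-scaled library totals, and log2 CPM carry a pseudocount of 0.5. DESeq2 1.42.0 and limma 3.58.1 (voom) were alternatives, and leaving out each liver and other filters and scalings were tried too. The fit of CORT under isotype was tested on simulated data. Leaving out 1 of 2 livers for the genes outside the loop was added after the data were seen. The members and lists were chosen with earlier results of these data known. All 10 members are named throughout, as are the genes of the lists of outside regulators and output factors, except 1 that is not reported here. Other lists give called genes only. Positions and exon lengths come from GENCODE M39 (GRCm39), matched by Ensembl identifier without version (91.4% of 48440 matched). Exon length is the union of all annotated exons. Livers are separate mice per the labels, which state no pairing of mice across groups by replicate number. Counting limits cover counting error only.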

Additional observations from a re-analysis of the deposited data

Results flagged for a closer look

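Of 84 groups of 5 livers examined for a single distant liver among the clock genes and their regulators, 5 held one whose gap to the nearest liver exceeded Dixon's 95% critical value of 0.71 of the range. Gaps and ranges were taken on log2 CPM with the pseudocount of 0.5, and the levels are given in CPM. Chance flags about 1 in 20 groups. Clock was low in Isotype + CORT replicate 5 (19.9 CPM, nearest 33.4 CPM). Npas2 was low in αACBP + CORT replicate 5 (3.57 CPM, nearest 14.2 CPM), and Dbp was high in the same liver (195 CPM, nearest 9.61 CPM). Nr1d1 was low in Isotype + Vehicle replicate 1 (54.7 CPM, nearest 166 CPM). Rora was high in Isotype + CORT replicate 1 (70.0 CPM, nearest 43.6 CPM).

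The fitted effect of CORT on Nfil3 differed between the antibodies. The interaction was 1.80 on the log2 scale (standard error 0.33, edgeR adjusted p = 0.0162), with -0.35 under isotype and 1.45 under αACBP. Of all genes 0.143% were called in the interaction. Nfil3 belongs to a list chosen with these results known, so this is a description and not independent support. Nfil3 was 37.6 to 76.2 CPM in Isotype + CORT and 42.5 to 119 CPM in αACBP + CORT, where replicate 5 was the lowest liver.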

How the results depend on the processing

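The number of clock genes called is given in the order CORT under isotype, αACBP under CORT, CORT under αACBP, αACBP under vehicle and interaction, and was 0, 0, 0, 1 and 0. DESeq2's Wald test gave 0, 0, 5, 4 and 4, and limma voom with quality weights 0, 0, 5, 3 and 1. An unadjusted p with the same fold limit gave 2, 1, 8, 6 and 5. The share of all genes at this setting was not counted, so nothing is read from these. Requiring 10 counts in every liver, which removes Npas2 and Cry1, gave 3 with αACBP under vehicle (2.1% of genes) and 1 for the interaction (0.532%). Fitting only the groups compared gave 3 with αACBP under vehicle (1.54% of genes). DESeq2 size factors, no count filter and no fold limit moved none of these counts by more than 1.5 times. Over all genes, DESeq2 called 527, 211, 112, 285 and 187 genes against 312, 96, 34, 209 and 23, voom 155 with CORT under αACBP, 57 with αACBP under CORT and 49 for the interaction, and 310 with αACBP under vehicle, and fits of the groups compared alone 27 with αACBP under CORT. For the interaction, DESeq2 size factors gave 35 genes, no filter 53 and 10 counts in every liver 60. No fold limit gave 514, 154 and 826 genes with CORT under isotype, αACBP under CORT and αACBP under vehicle.

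With 1 liver left out at a time the counts of clock genes ranged from 0 to 0, 0 to 1, 0 to 4, 1 to 3 and 0 to 4. αACBP + CORT replicate 5 gave the 1 with αACBP under CORT and both counts of 4. The counts over all genes ranged from 205 to 421, 52 to 191, 5 to 153, 87 to 343 and 6 to 101. They were highest without Isotype + CORT replicate 3 for CORT under isotype and αACBP under CORT, without αACBP + CORT replicate 5 for CORT under αACBP and the interaction, and without Isotype + Vehicle replicate 4 for αACBP under vehicle. Leaving out Isotype + Vehicle replicate 4 gave 3 (2.08% of genes), and αACBP + Vehicle replicate 4 gave 2 (1.73%), with αACBP under vehicle. Leaving out Isotype + CORT replicate 4 or 5 or αACBP + Vehicle replicate 4 gave 1 for the interaction (0.37, 0.437 and 0.395% of genes). Directions reversed for Cry1 with αACBP under CORT (-0.069), to 0.081 with voom, 0.12 and 0.019 without Isotype + CORT replicates 1 and 4, and 0.041 and 0.18 without αACBP + CORT replicates 3 and 5, and for Per1 (0.71), to -0.10 without αACBP + CORT replicate 5. Leaving out 1 liver gave -0.33 to 0.18 for Cry1 and -0.10 to 1.06 for Per1. The cause was not tested. Fold changes of the members kept their sign under the other alternatives run.

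With the replicate number as a block, 1 clock gene was called with CORT under αACBP (0.224% of genes) and 3 with αACBP under vehicle (1.15%), and 0 in the others. The labels state no pairing of mice by these numbers, and none was seen. Livers with the same number had mean correlations of -0.036 to 0.040 in their deviations from the group means, and 2 of 20 livers correlated best with their own number. These values cannot exclude a pairing. By Pearson's r, 3 of the 5 genes most like Arntl and 2 of the 5 most like Nr1d1 were among the top 5. Cry1 (0 counts in αACBP + Vehicle replicate 5) and Npas2 (3 counts in Isotype + CORT replicate 5) rest on few counts in those livers. The depth of these 2 libraries was similar to that of the others, and Cry1 was among the genes at 0 in αACBP + Vehicle replicate 5 alone. The cause was not tested.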
